A study of Mus musculus with 6 samples.

Results

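Chemokines and their receptors were examined in RNA from mouse kidney glomeruli. The family was taken as the protein-coding genes whose GENCODE M21 symbol begins with Ccl, Cxcl, Ccr, Cxcr or Ackr and a number, with Ccrl2, Cx3cl1, Cx3cr1, Xcl1 and Xcr1 added. Of 68 such entries among the 52636 genes of the tables, 47 had at least 10 counts summed over all libraries, 28 of them ligands and 19 receptors. The glomeruli came from untreated mice labelled young (3 libraries) or aged (3 libraries). The labels give no age in weeks, strain or sex. Magnetic beads perfused through the circulation lodge in glomerular capillaries, and bead-bearing glomeruli were pulled out of digested kidney with a magnet and lysed whole. Nothing in the labels says whether the libraries came from separate animals, so p-values measure only the spread between these samples, which may be technical.

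Chemokines are small secreted or membrane-tethered proteins that steer the movement of leukocytes, and of some tissue cells, along gradients held on glycosaminoglycans. They act on receptors that pass through the membrane and couple to inhibitory G proteins. The atypical receptors (among the members, Ackr2, Ackr3, Ackr4 and the chemerin-binding Ccrl2) bind ligands without that coupling and mostly take them up or present them. In the kidney, podocytes, endothelium and tubule cells can make chemokines, and resident macrophages carry receptors such as Cx3cr1.

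Library totals ran from 21162919 to 26791412 counts, and 19833 to 20614 genes had a count in each library. Markers of podocytes, endothelium and mesangial cells were present in all libraries, and the summed level of 8 podocyte markers was 30800 to 34800 CPM (counts scaled to a common, TMM-adjusted library size) in young and 11900 to 15700 CPM in aged libraries. The sum of 10 proximal tubule markers was 1370 to 2790 CPM in young and 5060 to 7550 CPM in aged libraries, and that of 12 macrophage markers 1150 to 1300 CPM and 2260 to 3180 CPM. None of these markers was at 0. These shifts moved with age beside every result below, and their part in the results was not tested, apart from a fit with a tubule score given below. In bulk RNA, fewer cells of a type and less RNA per cell cannot be told apart.

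Most of the family's tested ligands were higher in aged glomeruli, whereas all 4 tested atypical receptors were lower. Of the 47 members, 37 passed the filter on low counts, of which 23 rose and 7 fell with age at an adjusted p under 0.05 (edgeR quasi-likelihood test, Benjamini-Hochberg over all 15721 genes tested). Across all genes tested, 23.7% were higher and 16.3% lower by the same rule, 40.1% in all, against 62.2% and 18.9% of the tested members. The median log2 fold change, aged minus young, was 1.36 over the tested members and 0.01 over all genes tested. Of the 23 higher members, 20 were at least 2-fold higher, and 3 of the 7 lower ones were at least 2-fold lower. The young and aged libraries did not overlap for any of the 30 called members, a pattern shown by 52.6% of all genes tested.

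Among the tested members, Ccl7, Ccl8 and Cxcl2 had no young library at the filter's level and passed through the aged libraries alone. They had to differ, and the share called among tested members is a description. A further 7 members (Ccl2, Ccl22, Ccr6, Cxcl14, Cxcr3, Cxcr6 and Xcr1) had fewer than 3 young libraries at that level, and Ccr6 also had only 1 aged library there. Apart from Ccr6, their passing rested on the aged libraries, which favours genes that are higher in aged. With a score of proximal tubule markers added to the edgeR model, 0 members were called in either direction, 17 had an unadjusted p under 0.05, and 28 of the 30 called members kept their direction. Of that score's variance, 93.7% lay between the ages, which by construction leaves such a fit little to call.

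**Figure D1:**
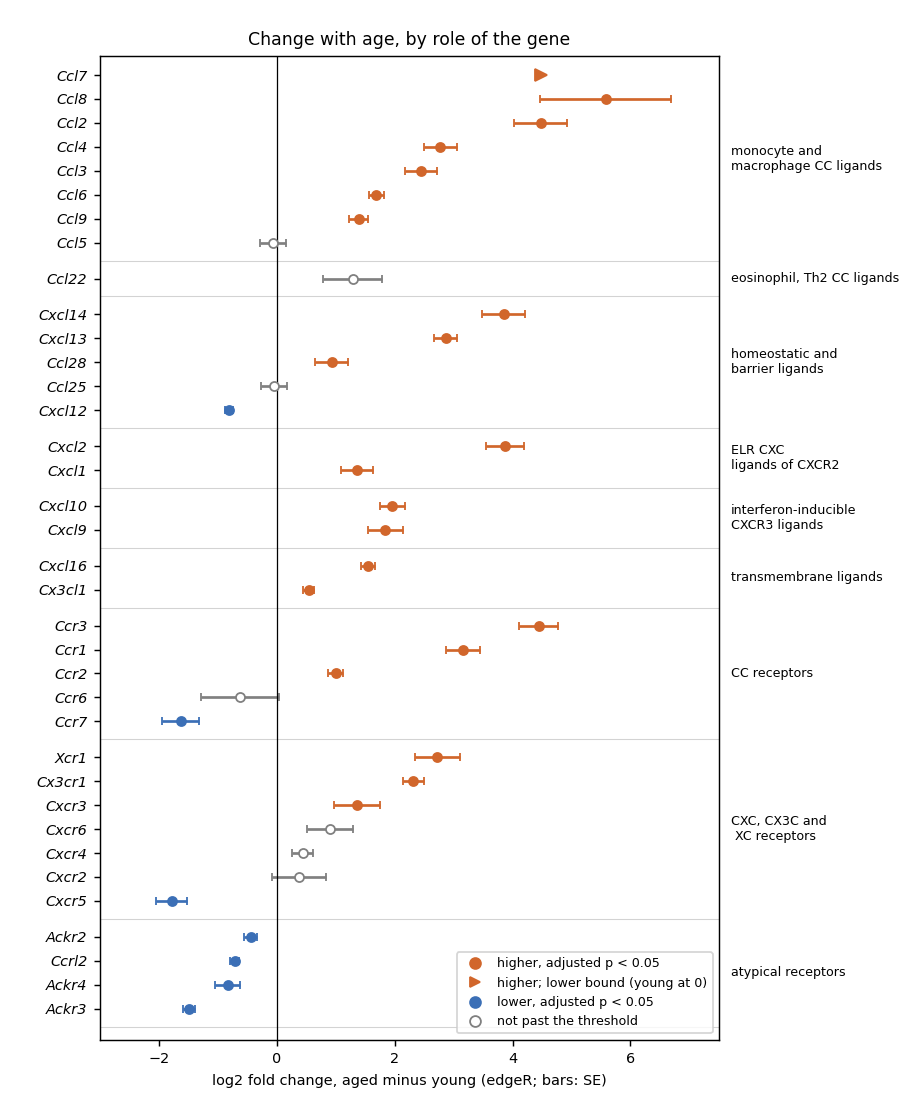
Log2 fold change, aged minus young, of tested chemokine and receptor genes grouped by role, with bars of 1 SE from the edgeR fit and filled symbols for adjusted p under 0.05. The 4 atypical receptors lie left of 0, and 16 of 20 ligands lie right of it with filled symbols; Ccl7, with no count in young libraries, is drawn at its lower bound.

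Promoter windows are shown for 5 members. The neutrophil attractants Cxcl1 and Cxcl2 share a letter-for-letter NF-kB match. The interferon-inducible Cxcl10 has 4 motif matches in 1 window. Cxcl13 had the highest mean TPM of the ligands in aged glomeruli, and Ackr3 the largest fall of the atypical receptors. Each window holds 250 bases before and 50 from the transcription start of a RefSeq entry on GRCm38.p6, printed 5′ to 3′ on the gene's strand. Capitals mark matches to any of 4 motifs searched on both strands: the NF-kB site, AP-1 (TGANTCA), C/EBP (TTGCNNAA) and the interferon-stimulated response element (GAAA, any 2 bases, GAAA). The windows lie at chr5:90890995-90891294 (plus strand), chr5:90903649-90903948 (plus), chr5:92348840-92349139 (minus), chr5:95956689-95956988 (plus) and chr1:90203730-90204029 (plus).
Cxcl1: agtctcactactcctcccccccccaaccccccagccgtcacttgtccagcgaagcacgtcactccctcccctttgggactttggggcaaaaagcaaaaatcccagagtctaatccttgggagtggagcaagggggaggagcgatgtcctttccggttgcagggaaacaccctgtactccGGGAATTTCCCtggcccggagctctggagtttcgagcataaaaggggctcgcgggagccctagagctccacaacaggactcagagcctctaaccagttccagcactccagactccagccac
Cxcl2: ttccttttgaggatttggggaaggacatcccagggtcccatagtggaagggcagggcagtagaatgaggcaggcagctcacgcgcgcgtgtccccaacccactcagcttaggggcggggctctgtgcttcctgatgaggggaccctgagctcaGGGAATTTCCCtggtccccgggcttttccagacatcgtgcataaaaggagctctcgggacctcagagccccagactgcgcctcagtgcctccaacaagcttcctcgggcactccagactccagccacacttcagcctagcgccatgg
Cxcl10: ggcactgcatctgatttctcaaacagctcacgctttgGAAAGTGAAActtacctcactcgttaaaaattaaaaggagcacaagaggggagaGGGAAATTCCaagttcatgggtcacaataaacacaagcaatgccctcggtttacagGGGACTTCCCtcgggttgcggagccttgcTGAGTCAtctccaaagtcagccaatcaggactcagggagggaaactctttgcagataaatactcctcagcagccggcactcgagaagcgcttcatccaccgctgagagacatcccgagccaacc
Cxcl13: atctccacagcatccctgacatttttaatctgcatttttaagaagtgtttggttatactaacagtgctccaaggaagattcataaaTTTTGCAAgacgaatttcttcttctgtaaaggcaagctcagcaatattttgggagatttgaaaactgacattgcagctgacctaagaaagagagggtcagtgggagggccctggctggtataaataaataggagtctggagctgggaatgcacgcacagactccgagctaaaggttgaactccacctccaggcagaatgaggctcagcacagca
Ackr3: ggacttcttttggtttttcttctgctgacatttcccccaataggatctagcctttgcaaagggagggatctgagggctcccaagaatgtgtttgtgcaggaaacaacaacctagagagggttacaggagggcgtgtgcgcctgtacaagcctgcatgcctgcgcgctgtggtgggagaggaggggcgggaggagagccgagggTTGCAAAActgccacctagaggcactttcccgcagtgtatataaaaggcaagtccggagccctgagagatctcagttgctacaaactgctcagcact

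In Cxcl1 and Cxcl2 the capitals are the letters GGGAATTTCC and the overlapping match on the other strand, beginning 71 and 97 bases before the start. In Cxcl10 they are, from the 5′ end, the response element, an NF-kB match, a second NF-kB match and AP-1, at 213, 159, 103 and 74 bases before the start. Cxcl13 and Ackr3 each hold 1 C/EBP match, at 164 and 47 bases before the start. RefSeq windows matched 36 of the 47 members, and 10 of these held an NF-kB match, against 5.14% of all genes with a window and 4.51% of all windows. The 10 comprised 5 of 18 members called higher, 2 of 5 called lower, 1 of 6 not called and 2 of 7 not tested. AP-1 was matched in 7 members (8.97% of all genes), C/EBP in 3 (12.2%) and the response element in 2, Cxcl10 and Cxcl14 (3.99%). A match is a description of letters, not a site or a cause.

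The CC chemokines that attract monocytes and macrophages were mostly higher: 7 of 8 tested were called higher, none lower, with a median log2 fold change of 2.61, also with Ccl7 at its lower bound. Among the 7, Ccl7 and Ccl8 passed the filter through the aged libraries alone and had to differ. Ccl2 had only 1 young library at the filter's level, so its passing rested on the aged ones too. Ccl2, the main ligand of the monocyte receptor Ccr2 (ENSMUSG00000035385, chr11:82035571-82037453, plus strand), stood at 0.446, 0.301 and 0.131 CPM in young replicates 1 to 3 and at 10.2, 5.28 and 4.62 CPM in aged replicates 1 to 3. Every aged library lay above every young one, with aged replicate 1 highest. The aged mean was 22.3-fold higher in the edgeR fit (log2 fold change 4.48 ± 0.45 SE, adjusted p = 7.17e-05). Ccl7, a second ligand of Ccr2 lying next to Ccl2 (chr11:82045712-82047525), had no count in any young library and 29, 16 and 19 counts in the aged ones. It was at least 22.4-fold higher against a floor of 3 counts over the young group (edgeR adjusted p = 0.000717). Ccl8, of the same neighbourhood, had 1, 0 and 0 counts in young and 41, 11 and 10 in aged libraries. The ratio of its counts per library total was 65.0, with a 95% counting interval of 11.2 to 2610 (edgeR adjusted p = 0.00319). Aged replicate 1 carried most of that signal, and the aged mean of 0.89 CPM was 0.442 CPM without it. The fit gave Ccl8 a log2 fold change of 5.58 ± 1.10 SE, which was 4.58 without aged replicate 1 and 7.42 without young replicate 1, the only young library with a count.

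Ccl3 and Ccl4, the macrophage inflammatory proteins, were both higher. Ccl3 was at 2.03, 1.66 and 3.23 CPM in young and 14.5, 9.26 and 13.7 CPM in aged libraries (5.44-fold, log2 fold change 2.44 ± 0.27 SE, adjusted p = 0.000103, edgeR). Ccl4 was at 1.09, 2.41 and 2.05 CPM in young and 15.1, 9.42 and 13.7 CPM in aged libraries (6.85-fold, log2 fold change 2.77 ± 0.28 SE, adjusted p = 7.38e-05, edgeR). In both genes aged replicate 2 was the lowest aged library and still above every young one. Ccl6 and Ccl9, rodent chemokines that bind Ccr1, were higher in aged libraries as well. Ccl6 was at 12.2, 15.5 and 16 CPM in young and 51.7, 41.6 and 47.6 CPM in aged libraries (3.23-fold, log2 fold change 1.69 ± 0.13 SE, adjusted p = 1.77e-05, edgeR). Ccl9 was at 8.23, 8.95 and 9.78 CPM in young and 27.9, 18.2 and 24.6 CPM in aged libraries (2.62-fold, log2 fold change 1.39 ± 0.16 SE, adjusted p = 0.000158, edgeR). Their aged libraries lay clear of the young ones. Ccl5 (RANTES), made by T cells and NK cells among others, was the exception in this group. It stood at 4.5, 3.27 and 3.67 CPM in young and 4.66, 3.19 and 3.08 CPM in aged libraries, with overlapping groups (log2 fold change -0.07 ± 0.22 SE, adjusted p = 0.848, edgeR). Levels were compared between genes only per exon length, in TPM, a scale on which each library has the same total. On it Ccl6 came first in the group at 95.8 ± 8.64 TPM (SD, n = 3) in aged glomeruli, followed by Ccl4 at 70.6 ± 15.5 TPM and Ccl3 at 59.6 ± 12.9 TPM. The spreads of Ccl4 and Ccl3 overlap.

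**Figure D2:**
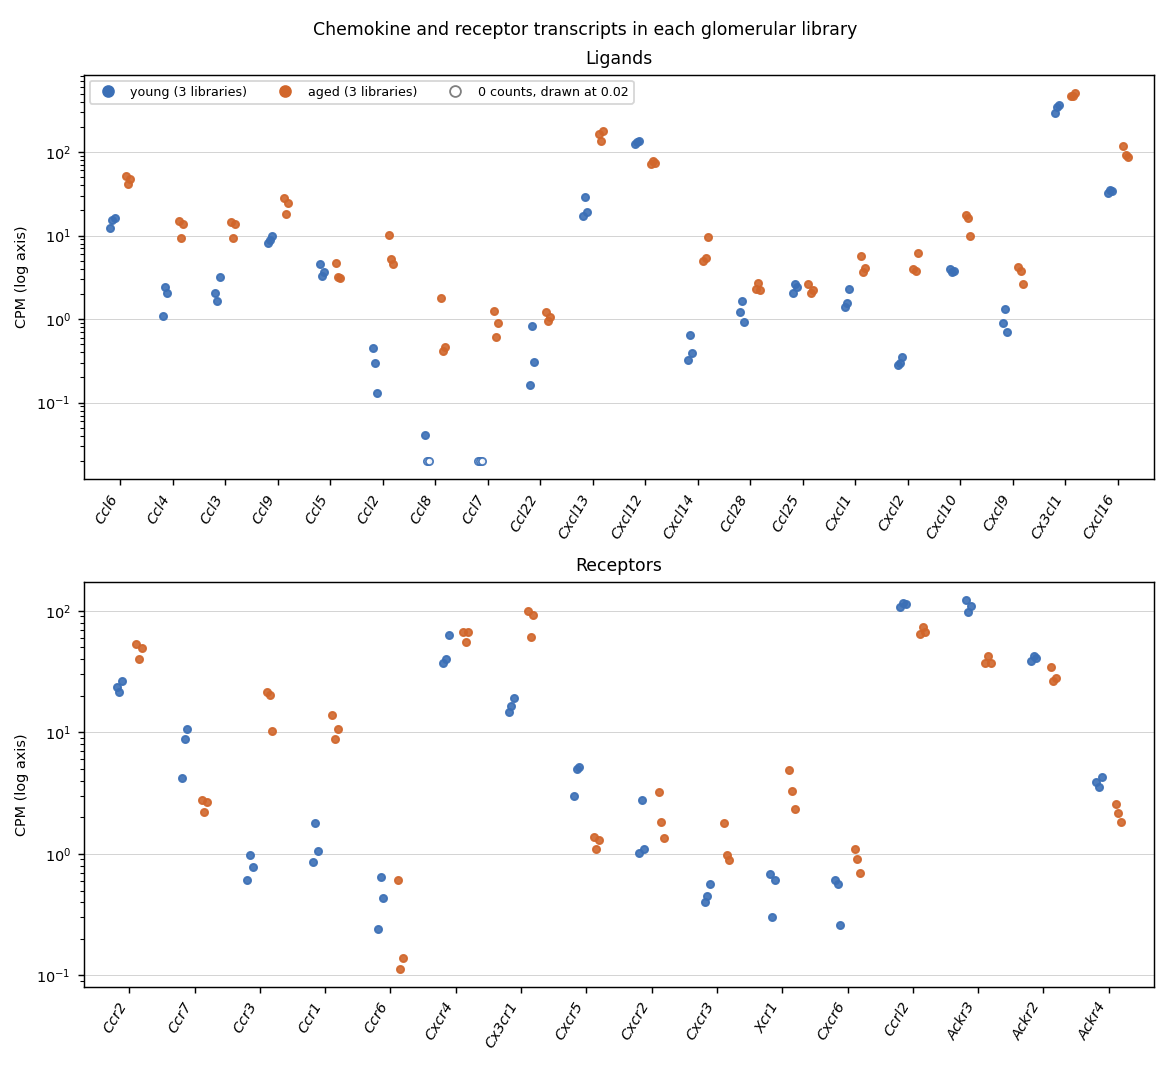
Level of tested ligands (top) and receptors (bottom) in CPM on a log axis, with 1 point per library. For each called member drawn, the 3 aged points lie entirely above or entirely below the 3 young points; open symbols, in Ccl7 and Ccl8, are young libraries with no count.

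The ligands grouped as eosinophil and Th2 chemokines were scarce. Ccl8, also paired here with the receptor Ccr8, was counted with the monocyte attractants above. Ccl22 was the only 1 of the eosinophil and Th2 group tested, at 0.162, 0.828 and 0.305 CPM in young and 1.22, 0.949 and 1.07 CPM in aged libraries. It missed the threshold (log2 fold change 1.28 ± 0.50 SE, adjusted p = 0.0685, edgeR). Young replicate 2 lay well above the other young libraries, and without it the log2 fold change was 2.19 (edgeR adjusted p = 0.00564). Ccl17, a second Ccr4 ligand, had 10 counts in young and 41 in aged libraries, a ratio of 4.3 per library total (95% counting interval 2.12 to 9.63). Young replicate 1 held 7 of the young counts, and the young mean of 0.134 CPM was 0.0594 CPM without it. The eotaxin Ccl11 had a ratio of 3.93 (1.25 to 16.3) from 2, 0 and 2 counts in young and 2, 4 and 9 in aged libraries, which overlapped in CPM, and its aged mean of 0.22 CPM was 0.119 CPM without aged replicate 3. Ccl24, another eotaxin, had no count in young and 3, 8 and 5 counts in aged libraries, at least 5.5-fold higher.

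Homeostatic and barrier chemokines held the ligand with the highest mean TPM in aged libraries, Cxcl13, and the only ligand called lower, Cxcl12. Cxcl13, which draws B cells into follicles through Cxcr5 (ENSMUSG00000023078, chr5:95956951-95961068, plus strand), was at 16.9, 29.1 and 19.3 CPM in young and 163, 135 and 178 CPM in aged libraries. The lowest aged library was more than 4-fold above the highest young one. It was 7.28-fold higher (log2 fold change 2.86 ± 0.19 SE, adjusted p = 1.15e-05, edgeR), and per exon length it went from 74.5 ± 21.1 to 506 ± 76.7 TPM (SD, n = 3), from rank 5 to rank 1 of the 47 members. In aged libraries its mean lay above that of Cx3cl1 (450 ± 36.2 TPM), but the SDs overlap. In aged replicate 2 Cx3cl1 was the higher of them, at 441 TPM against 435 TPM for Cxcl13. Cxcl12, the constitutive ligand of Cxcr4 and Ackr3 and a podocyte product in the glomerulus (chr6:117168535-117181367), was at 123, 133 and 136 CPM in young and 71.3, 77.6 and 74.1 CPM in aged libraries. It was 1.76-fold lower (log2 fold change -0.81 ± 0.07 SE, adjusted p = 3.12e-05, edgeR), with all aged libraries below all young ones, beside the lower summed level of podocyte markers given above.

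Cxcl14, a chemokine made by epithelia and fibroblasts, was at 0.324, 0.64 and 0.393 CPM in young and 4.92, 5.39 and 9.67 CPM in aged libraries. That was 14.4-fold higher (log2 fold change 3.85 ± 0.37 SE, adjusted p = 5.76e-05, edgeR), and aged replicate 3 was the highest library. Only 1 young library reached the filter's level for Cxcl14, so its passing rested on the aged ones. Ccl28, a mucosal epithelial ligand of Ccr10, was at 1.22, 1.66 and 0.916 CPM in young and 2.26, 2.73 and 2.24 CPM in aged libraries (log2 fold change 0.93 ± 0.27 SE, adjusted p = 0.0231, edgeR). This call was lost when young replicate 1, young replicate 3, aged replicate 1 or aged replicate 2 was left out, with adjusted p from 0.0129 to 0.0871 over the 6 omissions. Ccl25, the thymic and intestinal ligand of Ccr9, stood at 2.03, 2.63 and 2.44 CPM in young and 2.61, 2.05 and 2.24 CPM in aged libraries, overlapping (log2 fold change -0.04 ± 0.22 SE, adjusted p = 0.897, edgeR). Epithelial markers moved beside the rises: the 7 distal nephron markers tested were all higher in aged libraries, with sums of 953 to 2080 CPM in young and 4050 to 4320 CPM in aged libraries and none at 0. Of 5 tested fibroblast markers 4 were higher and 1 lower, while the summed level of the list was 809 to 848 CPM in young and 633 to 782 CPM in aged libraries, with none at 0. The part of either list was not tested.

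Both tested neutrophil attractants of the ELR class, which act on Cxcr2, were higher. Of the pair, Cxcl2 passed the filter through the aged libraries alone and had to differ. Cxcl1 was at 1.38, 1.54 and 2.31 CPM in young and 5.75, 3.61 and 4.11 CPM in aged libraries (2.58-fold, log2 fold change 1.36 ± 0.27 SE, adjusted p = 0.00318, edgeR). Cxcl2 was at 0.284, 0.301 and 0.349 CPM in young and 4.01, 3.72 and 6.12 CPM in aged libraries (14.6-fold, log2 fold change 3.87 ± 0.32 SE, adjusted p = 2.62e-05, edgeR). The near neighbours, whose promoter windows share the NF-kB match printed above, thus differed in the size of their fitted changes, a difference that was not tested. Of 8 neutrophil markers, 4 were tested and 3 of them were higher. Their summed level was 17.5 to 21.1 CPM in young and 22.7 to 40.5 CPM in aged libraries, with the granule genes Elane and Camp at 0 in every library, and their part was not tested.

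The interferon-inducible ligands of Cxcr3 were both higher. Cxcl10 was at 3.93, 3.61 and 3.71 CPM in young and 17.6, 16.2 and 10 CPM in aged libraries (3.89-fold, log2 fold change 1.96 ± 0.21 SE, adjusted p = 0.000105, edgeR). Cxcl9 was at 0.891, 1.32 and 0.698 CPM in young and 4.18, 3.72 and 2.62 CPM in aged libraries (3.58-fold, log2 fold change 1.84 ± 0.30 SE, adjusted p = 0.00107, edgeR). Aged replicate 3 was the lowest aged library for both, and it lay above all young ones. Cxcl11 is annotated as a polymorphic pseudogene in GENCODE M21 and was not a member.

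Both membrane-tethered ligands were higher, and Cx3cl1 ranked first of the members per exon length in young glomeruli and second in aged ones. Cx3cl1 (fractalkine), an adhesive ligand of Cx3cr1 carried by endothelium and epithelium (chr8:94772009-94782427), was at 289, 343 and 364 CPM in young and 470, 468 and 508 CPM in aged libraries. The rise was small and the groups did not overlap (1.45-fold, log2 fold change 0.54 ± 0.09 SE, adjusted p = 0.0015, edgeR). Cxcl16, a ligand of Cxcr6 that also acts as a scavenger receptor, was at 32.6, 35.5 and 34.1 CPM in young and 118, 92.4 and 87.9 CPM in aged libraries (2.92-fold, log2 fold change 1.55 ± 0.11 SE, adjusted p = 1.61e-05, edgeR). Per exon length it went from 44.5 ± 1.45 to 120 ± 14.8 TPM (SD, n = 3), from rank 8 to rank 4 of the members.

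Receptors for the inflammatory CC chemokines were higher: 4 of 6 tested CC receptors were called higher and 1 lower. Ccr3, the eotaxin receptor best known on eosinophils (chr9:124021972-124031689), was at 0.608, 0.978 and 0.786 CPM in young and 21.5, 20.2 and 10.2 CPM in aged libraries (21.7-fold, log2 fold change 4.44 ± 0.34 SE, adjusted p = 1.85e-05, edgeR). Ccr1, a receptor of Ccl3, Ccl6 and Ccl9 on myeloid cells, was at 0.851, 1.81 and 1.05 CPM in young and 13.9, 8.85 and 10.7 CPM in aged libraries (8.9-fold, log2 fold change 3.15 ± 0.28 SE, adjusted p = 4.05e-05, edgeR). In both genes the aged libraries stood clear of the young ones. Ccr2, the Ccl2 receptor of monocytes, was already expressed in young glomeruli, at 23.8, 21.6 and 26.7 CPM, and stood at 53.7, 40.4 and 49.7 CPM in aged ones (1.99-fold, log2 fold change 0.99 ± 0.12 SE, adjusted p = 0.000205, edgeR).

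Macrophage and monocyte markers give the setting for these receptors. Of 12 macrophage markers, 10 were higher, Mertk was lower and Cd163 was not called, with a median log2 fold change of 3.19. Of 5 monocyte markers 1 was higher and none lower, with sums of 87.7 to 106 CPM in young and 111 to 125 CPM in aged libraries. The median log2 fold change of the monocyte markers was -0.03, and 2 of the 5 had a positive value. No marker of either list was at 0 CPM throughout. The part of these markers in the receptor results was not tested.

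Ccr7, which guides lymphocytes and mature dendritic cells to lymph nodes, went the other way. It was at 4.25, 8.88 and 10.6 CPM in young and 2.79, 2.2 and 2.66 CPM in aged libraries, with young replicate 1 nearest the aged values (3.1-fold lower, log2 fold change -1.63 ± 0.32 SE, adjusted p = 0.00274, edgeR). Cxcr5, the B cell receptor of Cxcl13, was at 3, 4.97 and 5.15 CPM in young and 1.39, 1.1 and 1.31 CPM in aged libraries (3.45-fold lower, log2 fold change -1.79 ± 0.27 SE, adjusted p = 0.000635, edgeR). Both are found on lymphocytes, and Ccr7 also on mature dendritic cells. Of 7 B and plasma cell markers 5 were lower, beside 16.3% of all genes tested. They include Ms4a1, Cd79a, Cd79b and Pax5, while Jchain was higher. The summed level of those 7 markers was 32.3 to 42.1 CPM in young and 24.9 to 39.2 CPM in aged libraries, with none at 0. Of 11 T and NK cell markers, 3 were lower and 1 higher, with sums of 21.4 to 27.8 CPM and 13.7 to 26.0 CPM and none at 0. Of 7 dendritic cell markers 5 were higher and 1 lower. The part of these lymphocyte and dendritic cell markers was not tested. Ccr6, found on B cells and Th17 cells, was under 1 CPM in each library and not called (log2 fold change -0.63 ± 0.66 SE, adjusted p = 0.493, edgeR). Without aged replicate 1, its highest aged library, the log2 fold change was -1.77 (edgeR adjusted p = 0.0825).

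Among the CXC, CX3C and XC receptors, 3 of 7 tested were higher and 1, Cxcr5, lower. Cx3cr1, the fractalkine receptor of monocytes and resident macrophages, was at 14.8, 16.6 and 19.2 CPM in young and 98.9, 60.7 and 92.1 CPM in aged libraries (4.98-fold, log2 fold change 2.31 ± 0.18 SE, adjusted p = 2.09e-05, edgeR). Its annotation overlaps other genes on the same strand (Csrnp1, Gorasp1 and Xirp1), so reads in the overlap may be shared. Genes on the opposite strand, among them Ttc21a and Wdr48, overlap it as well. Xcr1, a receptor that marks cross-presenting dendritic cells, was at 0.689, 0.301 and 0.611 CPM in young and 4.92, 3.3 and 2.34 CPM in aged libraries (6.61-fold, log2 fold change 2.73 ± 0.39 SE, adjusted p = 0.000472, edgeR). Of 7 dendritic cell markers 5 were higher and 1 lower, with sums of 108 to 125 CPM and 129 to 150 CPM and none at 0, and their part was not tested. Cxcr3, the T and NK cell receptor of Cxcl9 and Cxcl10, was at 0.405, 0.451 and 0.567 CPM in young and 1.79, 0.987 and 0.888 CPM in aged libraries (log2 fold change 1.36 ± 0.39 SE, adjusted p = 0.0197, edgeR). That call was lost without young replicate 1, young replicate 2 or aged replicate 1, with adjusted p from 0.0233 to 0.0911 over the 6 omissions.

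Cxcr4, the signalling receptor of Cxcl12, was the most abundant receptor not called. It stood at 37, 39.9 and 63.1 CPM in young and 67.3, 55.4 and 66.6 CPM in aged libraries, with young replicate 3 inside the aged range (log2 fold change 0.44 ± 0.18 SE, adjusted p = 0.0875, edgeR). Without young replicate 3 it passed the threshold (log2 fold change 0.69, edgeR adjusted p = 0.000807). Cxcr6, the Cxcl16 receptor, had all aged libraries above all young ones but missed the threshold (log2 fold change 0.90 ± 0.39 SE, adjusted p = 0.101, edgeR). Cxcr2, the neutrophil receptor of Cxcl1 and Cxcl2, overlapped between the ages at 1.01, 2.78 and 1.09 CPM and 3.22, 1.82 and 1.35 CPM (log2 fold change 0.38 ± 0.45 SE, adjusted p = 0.55, edgeR).

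The 4 tested atypical receptors were all called lower. Ackr3, which takes up Cxcl12 (ENSMUSG00000044337, chr1:90203980-90216751, plus strand), was at 122, 98.8 and 110 CPM in young and 37.2, 42.7 and 37.6 CPM in aged libraries. It was 2.81-fold lower (log2 fold change -1.49 ± 0.10 SE, adjusted p = 9.71e-06, edgeR) and went from 130 ± 15.1 to 42.9 ± 4.16 TPM (SD, n = 3), from rank 3 to rank 10 of the members. Ccrl2, which presents the attractant chemerin, was at 107, 117 and 113 CPM in young and 64.1, 74.3 and 67.3 CPM in aged libraries (1.64-fold lower, log2 fold change -0.71 ± 0.08 SE, adjusted p = 9.66e-05, edgeR). The aged libraries of both genes lay below every young library. Ackr2, a scavenger of inflammatory CC chemokines, was at 38.9, 42.3 and 40.8 CPM in young and 34.6, 26.7 and 28.2 CPM in aged libraries (1.36-fold lower, log2 fold change -0.45 ± 0.10 SE, adjusted p = 0.00807, edgeR). Ackr4, a scavenger of Ccl19, Ccl21 and Ccl25, was at 3.89, 3.54 and 4.32 CPM in young and 2.57, 2.16 and 1.82 CPM in aged libraries (1.79-fold lower, log2 fold change -0.84 ± 0.21 SE, adjusted p = 0.00999, edgeR). For Ackr2 the gap between the ages was narrow, with aged replicate 1 close to young replicate 1. Podocyte markers (8 of 8 lower) and endothelial markers (7 of 9 lower, Plvap higher, sums of 10400 to 11200 CPM in young and 7900 to 8800 CPM in aged libraries, none at 0) moved in the same direction, and their part was not tested.

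Summed per exon length, ligand transcripts came to 548, 648 and 656 TPM in young and 1510, 1330 and 1610 TPM in aged libraries. Receptor transcripts came to 489, 493 and 564 TPM in young and 475, 428 and 473 TPM in aged libraries. The ligand sums stood apart and the receptor sums lay close to each other, without overlap. In CPM, which leaves out gene length, the receptor sums overlapped, at 361, 363 and 399 CPM in young and 439, 358 and 398 CPM in aged libraries. Within the receptor sum the make-up differed: atypical receptors held 73.9%, 70.1% and 63.4% of it in young and 34.9%, 43.5% and 37.3% in aged libraries, while Cx3cr1 held 2.66%, 2.91% and 3%, then 16.2%, 11.7% and 16.4%. Cx3cl1 made up 53.4%, 52.4% and 56.0% of ligand transcripts in young and 27.8%, 33.0% and 30.4% in aged libraries. Cxcl13 made up 10.7%, 15.2% and 10.2%, then 32.9%, 32.6% and 36.5%. These shares are descriptions without a test.

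**Figure D3:**
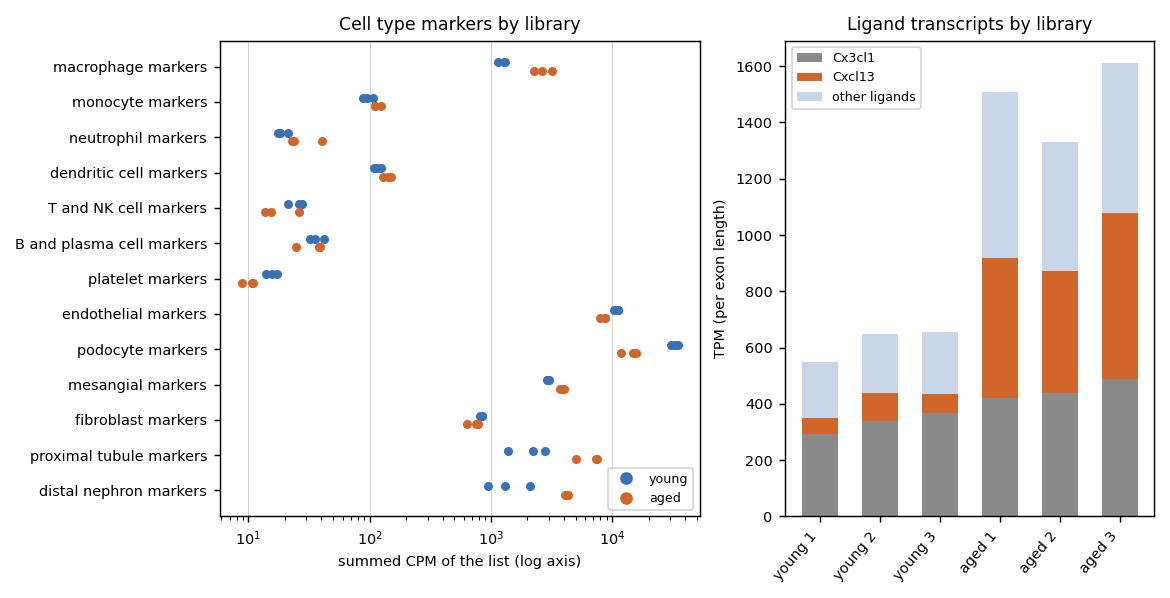
Left, summed CPM of 13 cell type marker lists on a log axis, 1 point per library; right, ligand transcripts per library in TPM, stacked as Cx3cl1, Cxcl13 and all other ligands. Aged libraries hold 1330 to 1610 TPM of ligand against 548 to 656 TPM in young ones, beside higher macrophage and tubule markers and lower podocyte markers.

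Ligands were also set beside their receptors in 36 textbook pairs, of which 18 had both genes tested. Both were higher in 10 pairs, among them Ccl2 with Ccr2, Ccl3, Ccl6 and Ccl9 with Ccr1, and Cx3cl1 with Cx3cr1. Both were lower in 1 pair, Cxcl12 with Ackr3, and the ligand was higher with the receptor lower in 1, Cxcl13 with Cxcr5. In the other 6 pairs at least 1 gene was not called. The pair list held no ligands for the lower receptors Ackr2, Ackr4 and Ccrl2. The count of opposed pairs therefore covers the listed pairs alone. The TPM ratio of Cxcl13 to Cxcr5 was 16.3, 17.0 and 10.9 in young and 338, 356 and 395 in aged libraries. For Cx3cl1 to Cx3cr1 it was 22.5, 23.7 and 21.7 in young and 5.45, 8.84 and 6.33 in aged libraries, beside fitted rises of 4.98-fold for the receptor and 1.45-fold for the ligand. The ratio of Cxcl12 to Cxcr4 was 0.735, 0.736 and 0.477 in young and 0.234, 0.31 and 0.246 in aged libraries, against 0.412, 0.55 and 0.508 and then 0.786, 0.744 and 0.806 for Cxcl12 to Ackr3. A ratio compares transcripts in the same RNA and says nothing of which cells hold them.

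Many chemokine genes lie side by side as tandem copies, and 6 neighbourhoods were formed by joining members less than 200 kb apart. On chromosome 11, Ccl2, Ccl7, Ccl11, Ccl12 and Ccl8 span 81.2 kb (chr11:82035571-82116799), and the 3 tested were all higher. Of these, Ccl7 and Ccl8 passed the filter through the aged libraries alone, so they had to differ, and Ccl2 had only 1 young library at its level. Further along, Ccl5, Ccl9, Ccl6, Ccl3 and Ccl4 span 139 kb (chr11:83525778-83664683), and 4 of 5 were higher, with Ccl5 at the end not called. On chromosome 5, Cxcl5, Cxcl1 and Cxcl2 span 147 kb (chr5:90759360-90905938), and Cxcl9 and Cxcl10 span 27.5 kb (chr5:92321347-92348889), with all tested genes higher. Cxcl2 too passed the filter through the aged libraries alone. On chromosome 8, Ccl22, Cx3cl1 and Ccl17 span 66.4 kb (chr8:94745590-94812036), with 1 of 2 tested genes higher. A run of receptor genes on chromosome 9 holds Ccr9, Cxcr6, Xcr1, Ccr1, Ccr1l1, Ccr3 and Ccr2, and of the 5 of these that were tested, 4 were higher and Cxcr6 was not called. No member was lower in any of these neighbourhoods, and the sizes differed within them: in the receptor run Ccr2 was 1.99-fold higher and Ccr3 21.7-fold. Over all genes tested, 23.7% were higher and 16.3% lower, against 62.2% and 18.9% of the tested members. Neighbouring copies can resemble each other in sequence (Ccr1 and Ccr1l1, Ccl8 and Ccl12), and how reads matching more than 1 gene were counted is not given in the sources used here, so their values are uncertain to that extent. Use of strand in the counting is not given either. Among the called members, Ccl2, Ccl6, Cxcl10, Cxcl16, Cx3cr1, Cxcr5 and Ackr4 overlap an annotated gene on the opposite strand. The library kit keeps strand per the labels' protocols, but if the counting did not use it, reads of such a pair could not be told apart.

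**Figure D4:**
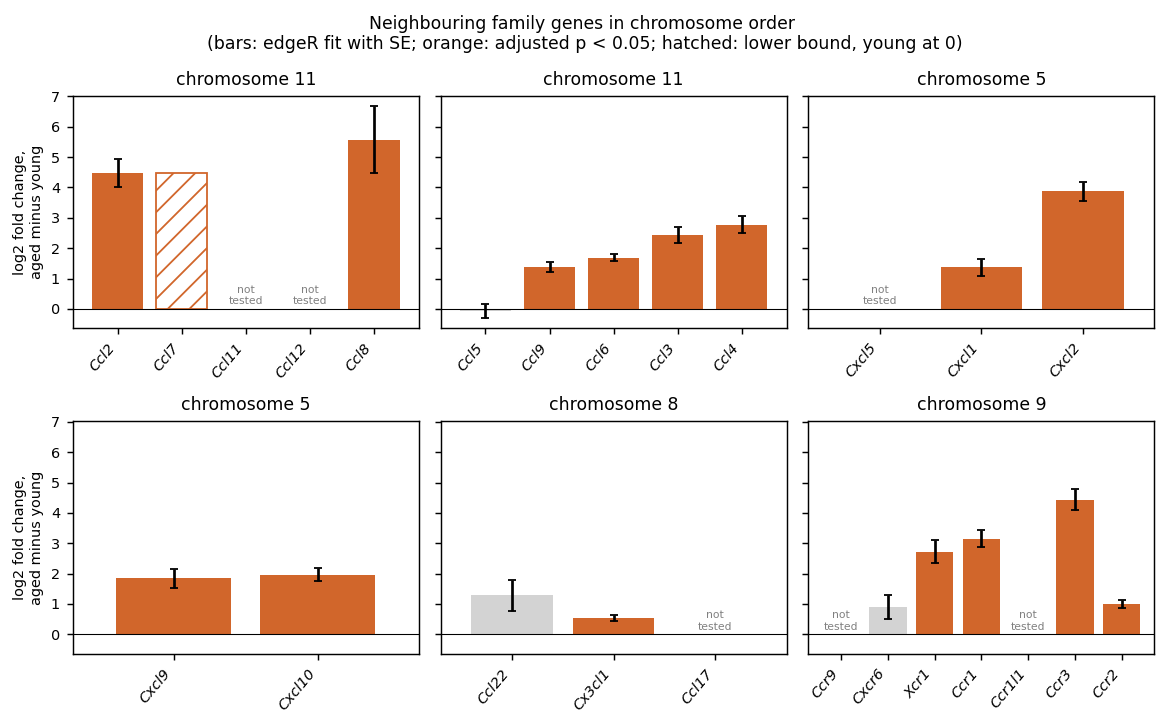
Log2 fold change, aged minus young, of members in 6 genomic neighbourhoods, drawn in chromosome order with SE from the edgeR fit (orange for adjusted p under 0.05, hatched for a lower bound). In the chromosome 9 receptor run Ccr2 (1.99-fold) lies next to Ccr3 (21.7-fold).

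Genes that act around the family were taken from 6 hand-written lists of 136 genes, of which 128 were tested. By the edgeR threshold 57 of these (44.5%) were higher and 22 (17.2%) lower, beside 23.7% and 16.3% of all genes tested. The signalling and migration list had 14 higher and 3 lower of 29 tested (median log2 fold change 0.31). Ptk2b, a calcium-sensitive kinase downstream of chemokine receptors, was at 15 ± 2.31 CPM in young and 53.9 ± 8.86 CPM in aged libraries (SD, n = 3; log2 fold change 1.84 ± 0.15 SE, adjusted p = 2.36e-05, edgeR). Tiam1, an exchange factor for Rac, was at 96.6 ± 4.44 and 54.2 ± 4.95 CPM (log2 fold change -0.83 ± 0.08 SE, adjusted p = 6.47e-05, edgeR). The receptor desensitisation list had 5 higher and 2 lower of 14 (median 0.13). Rgs1, which shortens G protein signalling in leukocytes, was at 0.642 ± 0.245 CPM in young and 36.7 ± 8.86 CPM in aged libraries (log2 fold change 5.84 ± 0.27 SE, adjusted p = 4.66e-06, edgeR). Grk5, a receptor kinase, was at 45.1 ± 1.91 and 30.4 ± 0.929 CPM (log2 fold change -0.57 ± 0.07 SE, adjusted p = 0.000286, edgeR).

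The induction list, cytokines and signalling genes that switch chemokines on, had 14 higher and 3 lower of 32 tested (median log2 fold change 0.31). Il1b, an inflammatory cytokine of myeloid cells, was at 23.3 ± 5.63 CPM in young and 95.3 ± 17.7 CPM in aged libraries (log2 fold change 2.03 ± 0.18 SE, adjusted p = 3.91e-05, edgeR). Ifngr1, a chain of the interferon gamma receptor, was at 237 ± 42.2 and 146 ± 9.77 CPM (log2 fold change -0.70 ± 0.12 SE, adjusted p = 0.00133, edgeR). The count of lower genes in this list was 1 in place of 3 when library totals replaced TMM and without young replicate 3, aged replicate 1 or aged replicate 2. A list of 13 immediate-early genes, which respond rapidly when cells are stimulated, was added after values had been seen. None was called higher and 1, Fosb, was lower (log2 fold change -1.09 ± 0.24 SE, adjusted p = 0.00531, edgeR), with sums of 5670 to 9030 CPM in young and 4920 to 7230 CPM in aged libraries.

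Genes that present or cleave chemokines were split, with 9 higher and 9 lower of 24 tested (median log2 fold change -0.08). Mmp13, a collagenase, was at 0.854 ± 0.444 CPM in young and 58.6 ± 13.4 CPM in aged libraries (log2 fold change 6.06 ± 0.29 SE, adjusted p = 4.66e-06, edgeR). Dpp4, a peptidase that trims the ends of Cxcl12 and Cxcl10, was at 1420 ± 132 and 525 ± 65.3 CPM (log2 fold change -1.44 ± 0.11 SE, adjusted p = 1.99e-05, edgeR). Attractants and chemotactic receptors outside the symbol rule had 9 higher and 1 lower of 12 tested (median 2.08). Lgals3, a galectin of macrophages, was at 17.8 ± 1.88 CPM in young and 118 ± 28.1 CPM in aged libraries (log2 fold change 2.73 ± 0.17 SE, adjusted p = 7.81e-06, edgeR). Ppbp, the platelet chemokine Cxcl7, was at 5.43 ± 1.5 and 2.5 ± 0.828 CPM (log2 fold change -1.11 ± 0.28 SE, adjusted p = 0.0107, edgeR). The leukocyte adhesion list had 6 higher and 4 lower of 17 tested (median 0.10). Vcam1, the endothelial and epithelial ligand of leukocyte integrins, was at 76 ± 19 CPM in young and 394 ± 71.8 CPM in aged libraries (log2 fold change 2.38 ± 0.19 SE, adjusted p = 2.23e-05, edgeR), and Cd99l2, a transmigration molecule, at 139 ± 2.72 and 94 ± 4.16 CPM (log2 fold change -0.57 ± 0.06 SE, adjusted p = 0.000128, edgeR).

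The 10 members that did not pass the filter on low counts were Ccl11, Ccl12, Ccl17, Ccl20, Ccl24, Ccl27a, Ccr1l1, Ccr9, Cxcl5 and Xcl1. In 9 of them the aged mean was the higher one, and in 4 the libraries did not overlap. Ccl12, a Ccr2 ligand of the chromosome 11 run, had a count ratio of 5.66 (95% counting interval 2.15 to 18.8). Its counts of 4, 1 and 0 in young and 18, 3 and 6 in aged libraries overlapped in CPM, the young mean of 0.0666 CPM was 0.0188 CPM without young replicate 1, and the aged mean of 0.393 CPM was 0.197 CPM without aged replicate 1. The receptor gene Ccr1l1 had no count in young and 6, 10 and 7 counts in aged libraries, at least 8-fold higher. Without the filter, edgeR also called Ccl17 (adjusted p = 0.0313), Ccl24 (0.0147) and Ccr1l1 (0.00385). A further 21 entries of the family were under the minimum of 10 counts. Among them were the Duffy receptor gene Ackr1 with 5 counts, Ccr4 with 7, Ccr10 with 4 and Cxcr1 with 4 in all 6 libraries. Ackr1, also an atypical receptor, had all its counts in aged libraries. For 12 entries, with the symbols Ccl19, Ccl21a, Ccl21b, Ccl21c, Ccl26, Ccl27 and Ccl27b, no count was recorded. Several of those entries are near-identical copies, so their lack of counts is uncertain, since the counting of shared reads is not given in the sources used here.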

How the data were processed

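Bulk RNA-seq libraries of isolated glomeruli, 3 young and 3 aged, were compared. The deposited tables, 1 for each library, list per the file headers each Ensembl gene with its width, its unnormalized counts and its RPKM. The RPKM values equalled the deposited counts scaled by width and a library total, so only counts were tested. The submitters' processing notes name GRCm38 and Partek; the aligner, the counting settings and use of strand are not given in the sources used here. Symbols, positions and exon lengths came from GENCODE M21 (GRCm38), which held 52489 of 52636 genes.

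Tests used edgeR 4.0.16 in R 4.3.3 (filterByExpr, TMM, quasi-likelihood F-test without covariates) over 15721 genes with Benjamini-Hochberg adjustment and a threshold of 0.05. SEs were derived from the fold change and F. CPM use TMM-adjusted library sizes, and TPM use the summed exon length. Alternatives used limma 3.58.1 (voom) and DESeq2 1.42.0, other scalings and filters, and the omission of each library. The scripts were tested on simulated data.

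Library totals of 21162919 to 26791412 counts set the precision. Intervals and the floor of 3 counts cover counting error only. Members, lists, roles and tests were chosen with earlier results of these data known. Named genes are all called members, the members with the highest TPM, and the gene with the smallest p in each direction of each list. Figures were drawn with Python 3.11.15 and matplotlib 3.10.9. The values of 1 member and 1 marker gene, which enter the counts and sums, are not reported here.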

Additional observations from a re-analysis of the deposited data

How the results depend on the processing

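The counts of 23 higher and 7 lower members stayed within 1.5 times under every alternative but the tubule score: DESeq2 gave 24 and 7, limma voom 24 and 7, no filter 27 and 7, and omission of single libraries 21 to 24 and 7. Of the 30 called members, 28 kept their call in all 14 of those alternatives, the exceptions being Ccl28 and Cxcr3. With the tubule score as a covariate, edgeR called 0 members higher and 0 lower, 24 of all genes higher and 5 lower, and 3 pathway genes higher and 0 lower. In that fit Cxcr2 (log2 fold change -3.21), Cxcr6 (-1.90), Ccl22 (-0.81), Ccl28 (-0.72) and Cxcl9 (-0.68) changed sign, and the cause was not tested beyond the tie between age and score.

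Values near 0 also changed sign on omission of a library. Over the 6 omissions Ccl5 ran from -0.28 to 0.064 (0.027 without aged replicate 2 and 0.038 without aged replicate 3), Ccl25 from -0.152 to 0.037 (0.034 without young replicate 2), and Cxcr2 from -0.042 without aged replicate 1 to 1.008 without young replicate 2. Counts of all genes then ran from 3153 to 3566 higher and 1941 to 2430 lower, and of pathway genes from 52 to 58 and 19 to 22.

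With the replicate number as a block, 24 members were higher, Cxcr4 among them (edgeR adjusted p = 0.0235), and 7 lower. Same-numbered libraries correlated at 0.013, 0.124 and 0.175 in their deviations, and 3 of 6 libraries correlated best with their own number, so the numbers were not taken as pairing. Depth limits members under about 1 CPM, where single counts move the values.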

Other observations

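The aged libraries did not share the family's rise evenly. Of the 23 members called higher, aged replicate 1 was the highest aged library in 18, replicate 2 in 1 and replicate 3 in 4, while the lowest was replicate 1 in 1, replicate 2 in 14 and replicate 3 in 8. In aged replicates 1 to 3 the macrophage marker sum was 3180, 2260 and 2620 CPM. The proximal tubule sum was 7550, 7320 and 5060 CPM, and the podocyte sum 11900, 14900 and 15700 CPM. The part of these sums was not tested.

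The platelet chemokines Pf4 (Cxcl4) and Ppbp (Cxcl7), which the symbol rule leaves out, differed in direction; Pf4 was chosen after its values were seen. Pf4, which macrophages can also make, was at 1.26, 1.28 and 2.14 CPM in young and 12.8, 4.48 and 6.49 CPM in aged libraries (log2 fold change 2.35 ± 0.40 SE, edgeR adjusted p = 0.00142). Ppbp was at 4.66, 4.48 and 7.16 CPM in young and 3.44, 2.2 and 1.87 CPM in aged libraries. The sum of 5 platelet markers was 14.0 to 17.2 CPM in young and 8.8 to 11 CPM in aged libraries.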
